A study of Mus musculus with 29 samples.

Results

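Cldn5, Kdr, Flt1 and Slco1a4 are genes by which endothelial cells of brain vessels are recognised, followed here in cortical cultures prepared from adult mice with or without an earlier lesion. They are 4 of the 5826 genes in the authors' deposited table, chosen by symbol from that table with its results known. A gene entered the table by an adjusted p under 0.1 at 1 or more of the 5 days compared. All 4 were admitted by their adjusted p-values at day 2, between 0.0156 and 0.0302 in the authors' deposited table, where the largest admitting value of any gene was 0.09997. Cldn5, Flt1 and Slco1a4 passed at day 3 as well, so for them day 3 was also an admitting day. The fold changes of the 4 genes at every day are therefore given as a description, and no test is added to them.

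The series holds 29 RNA-seq libraries of cortical cultures from adult wild-type C57/BL6 mice, which the labels call adult neurons. In 15 lesion libraries the animals received a conditioning lesion in vivo a day before plating, and 14 naive libraries had no treatment; the sources used here do not name the site of the lesion. Cultures were taken at days 1, 2, 3, 5 and 7, with 3 libraries in each lesion group and 3 in each naive group except day 7, which has 2. The values are the authors' log2 fold changes of lesion over naive within each day, so a positive value means higher in lesion cultures. "Rose" and "fell" are used for an adjusted p under 0.1 in that comparison. A column of expression ranks, 1 the highest, puts the neuronal genes Tubb3 and Snap25 at 321 and 843, Kdr at 5426, Cldn5 at 6488, Flt1 at 7651 and Slco1a4 at 11823 in the authors' deposited table; whether it allows for gene length is not stated, so it gives no order of levels between genes. Levels in single libraries, and whether lesion and naive libraries overlapped, were not analysed here, and the depth per library is unknown. Whether replicate libraries stem from separate animals or cultures is not stated in the labels, so the p-values measure the spread between these libraries, which may be technical.

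Brain endothelial cells line the vessels and form the blood-brain barrier. Their neighbours are joined by tight junctions, their membranes carry transporters that admit or expel solutes, and their growth and survival depend on vascular endothelial growth factor (VEGF) acting on receptor tyrosine kinases. Cldn5 encodes claudin 5, the dominant sealing protein of these tight junctions. Kdr encodes the main signalling receptor for VEGF-A, and Flt1 a receptor of the same family that binds VEGF-A tightly and also exists as a soluble decoy. Slco1a4 encodes an organic anion transporter of brain capillaries. In bulk RNA, fewer endothelial cells and less of these RNAs per cell cannot be told apart.

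In GENCODE vM21 (GRCm38, the assembly of mm10) Cldn5 lies on chromosome 16 at 18776847-18778262 on the + strand and has 1 exon. Kdr (75932827-75978458) and Flt1 (147561604-147726011) both lie on the - strand of chromosome 5, with 29 and 33 separate exonic blocks. Slco1a4 lies on the - strand of chromosome 6 at 141805440-141856199, next to its relatives Slco1a1, Slco1a6 and Slco1a5. None of the 4 overlaps another annotated gene. How reads shared by Slco1a4 and its relatives were counted is not given in the sources used here. The gene-level values do not separate the soluble and membrane forms of Flt1.

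The promoters are shown because the 4 genes were low together at days 2 and 3. Each run is the 250 bases before the annotated start, 5′ to 3′ on the gene's own strand, from RefSeq on GRCm38.p6. Capitals mark the letters AGGAAG, 1 form of the site bound by ETS transcription factors, and the GC box GGGCGG, on either strand. Other forms of the ETS site were not searched, so a window without AGGAAG may still hold one.
Cldn5 (chr16:18776597-18776846, +): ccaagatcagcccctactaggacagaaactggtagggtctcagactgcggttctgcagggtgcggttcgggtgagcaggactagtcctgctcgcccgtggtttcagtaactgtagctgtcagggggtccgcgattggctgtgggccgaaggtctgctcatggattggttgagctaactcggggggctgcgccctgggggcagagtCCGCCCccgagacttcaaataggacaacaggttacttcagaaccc
Kdr (chr5:75978456-75978705, -): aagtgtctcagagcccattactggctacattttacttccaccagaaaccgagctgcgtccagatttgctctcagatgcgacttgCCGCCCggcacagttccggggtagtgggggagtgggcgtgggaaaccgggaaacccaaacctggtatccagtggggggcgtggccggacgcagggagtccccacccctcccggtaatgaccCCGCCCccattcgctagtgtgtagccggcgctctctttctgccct
Flt1 (chr5:147726012-147726261, -): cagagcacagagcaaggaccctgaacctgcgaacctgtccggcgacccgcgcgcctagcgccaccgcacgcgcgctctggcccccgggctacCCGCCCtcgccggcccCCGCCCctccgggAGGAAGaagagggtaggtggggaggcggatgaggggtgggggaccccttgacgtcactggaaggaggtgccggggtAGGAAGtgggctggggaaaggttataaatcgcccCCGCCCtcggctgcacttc
Slco1a4 (chr6:141856221-141856470, -): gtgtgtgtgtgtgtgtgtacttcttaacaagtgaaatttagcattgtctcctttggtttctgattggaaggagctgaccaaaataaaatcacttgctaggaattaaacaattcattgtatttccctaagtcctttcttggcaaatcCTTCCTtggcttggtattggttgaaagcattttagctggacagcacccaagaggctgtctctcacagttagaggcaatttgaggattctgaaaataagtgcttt
Before Flt1 the letters AGGAAG occurred 2 times, and they occurred 1 time before Slco1a4, but were not found in these windows of Cldn5 and Kdr; 29.5% of 32851 promoter windows of this length held it. GGGCGG occurred 1 time before Cldn5, 2 times before Kdr and 3 times before Flt1, against 32.7% of all windows with a match, and was not found before Slco1a4. The marked letters of the 2 motifs did not overlap. Slco1a4 stood apart in composition, with 39.2% G and C and 0 CpG pairs, while Cldn5 had 59.6% and 12, Kdr 61.6% and 16, and Flt1 70.4% and 23; the medians of all windows were 52.4% and 6. The SOX letters AACAAT occurred 1 time before Slco1a4 (9.42% of all windows), and TATAAA 1 time before Flt1 (12.4%). The letters GATAAG (for GATA family factors, 6.55%), ACGTG (1 form of the hypoxia response site, 16.6%) and CTTTGA (TCF and LEF factors, 13.8%) were not found in any of the 4 windows, each searched on both strands. Other forms of these sites, such as GCGTG for hypoxia response, were not searched.

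At day 2 the 4 genes were each several-fold lower in lesion cultures than in naive ones. Cldn5, the junction gene, had a log2 fold change of -2.22 in the authors' deposited table, that is 4.67-fold lower, with an implied standard error of 0.55 and an adjusted p of 0.0222. Among the receptors, Kdr was at -2.99 (7.97-fold lower, implied standard error 0.75, adjusted p = 0.0236) by the authors' deposited table. Flt1 was at -2.73 (6.65-fold lower, implied standard error 0.72, adjusted p = 0.0302) by the authors' deposited table. Slco1a4, the transporter, was at -3.75 in the authors' deposited table, which is 13.4-fold lower, with an implied standard error of 0.86 and an adjusted p of 0.0156. The adjusted p-values are the authors', from voom and limma with Benjamini-Hochberg adjustment within a day. Slco1a4 was lowest and Cldn5 least low of the 4, but their implied 95% intervals overlapped, at -5.49 to -2.01 for Slco1a4 and -3.33 to -1.12 for Cldn5. So 4 of 4 fell at day 2, where 4.08% of all 19085 genes tested fell, 1.89% rose and 5.97% passed in either direction. Among the 6398 genes with an expression rank between those of Kdr and Slco1a4, 4.49% fell. The rule that chose the genes used this comparison, so nothing is read from the contrast with the background.

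Day 3 gave almost the same fold changes in other libraries. By the authors' deposited table, Flt1 was at -2.76 at day 3 (implied standard error 0.73, adjusted p = 0.0728) and Slco1a4 at -3.74 (implied standard error 0.88, adjusted p = 0.0451). Cldn5 was at -2.09 in the authors' deposited table, with an implied standard error of 0.56 and an adjusted p of 0.0740. Kdr was at -2.25 at day 3 (implied standard error 0.78) and missed the threshold, with an adjusted p of 0.152 in the authors' deposited table and an unadjusted one of 0.00592. Thus 3 of 4 fell, with a background of 0.943% fallen, 0.534% risen and 1.48% called in either direction, and 1.02% fallen among the 6398 genes of similar rank. The genes were chosen with the day 3 results known too, so nothing is read from this contrast. From day 2 to day 3 the fold changes of Cldn5, Flt1 and Slco1a4 moved by less than their standard errors, and that of Kdr moved by about 1 standard error.

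At days 1, 5 and 7 no member passed the threshold of voom and limma. Of all genes tested, 0.618% were called at day 1 (0.529% fell, 0.0891% rose), 24% at day 5 (11.2% fell, 12.8% rose) and 4.09% at day 7 (0.985% fell, 3.11% rose). At an unadjusted p under 0.05 the members gave 0, 0 and 1. At day 1 the log2 fold changes lay between -0.82 for Cldn5 and 0.38 for Kdr, with Flt1 at -0.33 and Slco1a4 at -0.14, in the authors' deposited table. Implied 95% intervals at day 1 were -1.92 to 0.27 for Cldn5 and -1.08 to 1.83 for Kdr. At day 5 Cldn5 was at 1.16 and Slco1a4 at 1.67, while Kdr was at -0.42 and Flt1 at -0.09, in the authors' deposited table. Their implied intervals at day 5 were wide: -1.36 to 3.69 for Cldn5, -3.43 to 2.60 for Kdr, -2.41 to 2.23 for Flt1 and -0.44 to 3.77 for Slco1a4. Set against their own day 2 intervals, those of Kdr at day 1 and of Slco1a4 at day 1 (-1.44 to 1.16) and day 5 did not overlap. All intervals of Cldn5 and Flt1 at days 1, 5 and 7 did. The day 2 values chose the genes and may be extreme for that reason, so nothing is read from which intervals overlapped. At day 7 Slco1a4 was again low, at -2.25 by the authors' deposited table, with an unadjusted p of 0.0323, an adjusted p of 0.256 and an implied interval of -4.30 to -0.20. Cldn5 was at -1.33, Kdr at -0.35 and Flt1 at 0.11 at day 7 in the authors' deposited table. A difference of several-fold in either direction was thus not detectable for Kdr at day 5. Since the same values chose the genes, the change from one day to another was not tested.

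**Figure D1:**
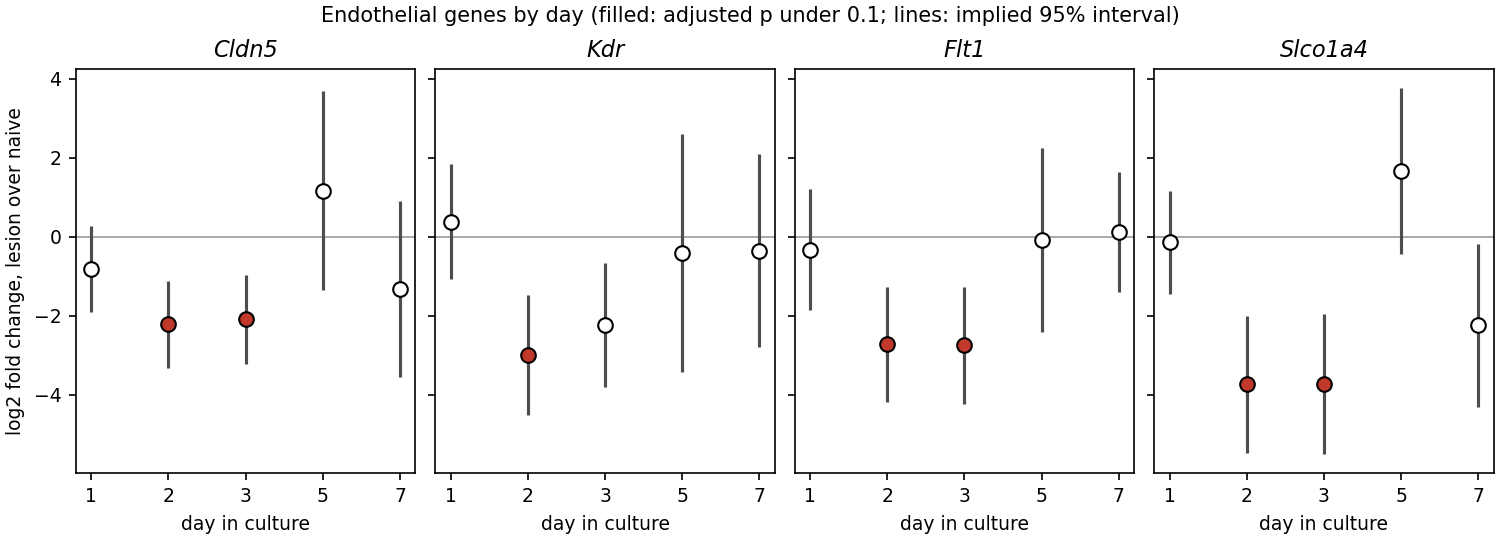
Log2 fold change of lesion over naive cultures (y axis) by day in culture (x axis) for each of the 4 genes; filled points have an adjusted p under 0.1, and vertical lines are the implied 95% intervals. The 4 points at day 2 lie between -3.75 and -2.22, and at day 5 between -0.42 and 1.67 with longer intervals.

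Errors of the 4 genes were wider at day 5 than at day 2. The implied standard error of Cldn5 was 2.29 times as large at day 5 as at day 2, that of Kdr 1.98 times, Flt1 1.59 times and Slco1a4 1.21 times. Over the 1960 genes of the authors' deposited table with ranks between those of Kdr and Slco1a4 the median ratio was 1.16, and for 12 other endothelial genes it was 1.38. The 4 genes passed at day 2, and 3 of them at day 3 also, while of all genes 4575 passed at day 5 and 1140 at day 2. Entry by a small p favours a small error at that day, so nothing is read from the difference between these ratios. At day 3 the errors of the 4 genes were 1.01 to 1.03 times those of day 2. In voom, low counts receive low weight and so wide errors, as background; the part of expression level in these ratios was not tested.

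Other endothelial genes were also low at days 2 and 3. A list of 35 endothelial identity genes held 16 in the authors' deposited table, the 4 included, and 19 outside it, which passed at no day or were not tested. Of the 31 other than the 4 genes, 7 fell at day 2 and 5 at day 3, with none risen. These are 22.6% and 16.1% of the listed genes, where 4.08% and 0.943% of all genes tested fell. This list and those below were chosen with earlier results of these data known. Their shares are therefore a description and no test. Of the 12 of these in the authors' deposited table, 0 had a positive fold change with an unadjusted p under 0.05 at either day. At day 2 Cd93, a surface glycoprotein of endothelial cells, fell with a log2 fold change of -3.47 (implied standard error 0.82, adjusted p = 0.0188) by the authors' deposited table. Flt4, the receptor for VEGF-C and VEGF-D of the same kinase family as Kdr and Flt1, was at -3.68 (implied standard error 0.94, adjusted p = 0.0263) by the authors' deposited table. The angiopoietin receptor Tek was at -3.43 and its partner Tie1 at -2.65 in the authors' deposited table. The adherens junction cadherin Cdh5 was at -1.87, the TGF-beta co-receptor Eng at -2.02 and the clotting factor gene Vwf at -2.16, each fallen at day 2 in the authors' deposited table. At day 3 Robo4, a guidance receptor of vessels, fell with -4.03 (adjusted p = 0.0956), and Flt4 (-3.35) and Cd93 (-2.87) fell again in the authors' deposited table. Ly6a (-1.92) and Ly6c1 (-1.90), which encode surface antigens, fell at day 3 and had not passed at day 2 in the authors' deposited table.

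Within the 12 other genes of the table, the median log2 fold change was -2.09 at day 2 and -1.91 at day 3, and that of the 4 genes -2.86 and -2.50. Medians over the whole of the authors' deposited table were -0.10 at both days. Medians of listed genes cover only those that passed at some day. The 7 other endothelial genes that fell at day 2 had negative values at day 3 in 7 of 7 cases and fell in 2; of all 779 genes that fell at day 2, 83.3% were negative and 13.0% fell at day 3. Day 5 was unlike this: of the 31 genes 2 rose and none fell. Among the 12 in the table, 3 were higher and 0 lower at an unadjusted p under 0.05. The 2 that rose were the junction adhesion gene Esam, at 2.00 (adjusted p = 0.0393), and Erg (rank 13217), an ETS transcription factor of endothelium, at 3.18 (adjusted p = 0.0899), by the authors' deposited table. At day 5 12.8% of all genes tested rose, so 2 of 31 is below that share. No other endothelial identity gene passed at day 1 or day 7, with 2 of the 12 in the table lower at an unadjusted p under 0.05 at each.

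**Figure D2:**
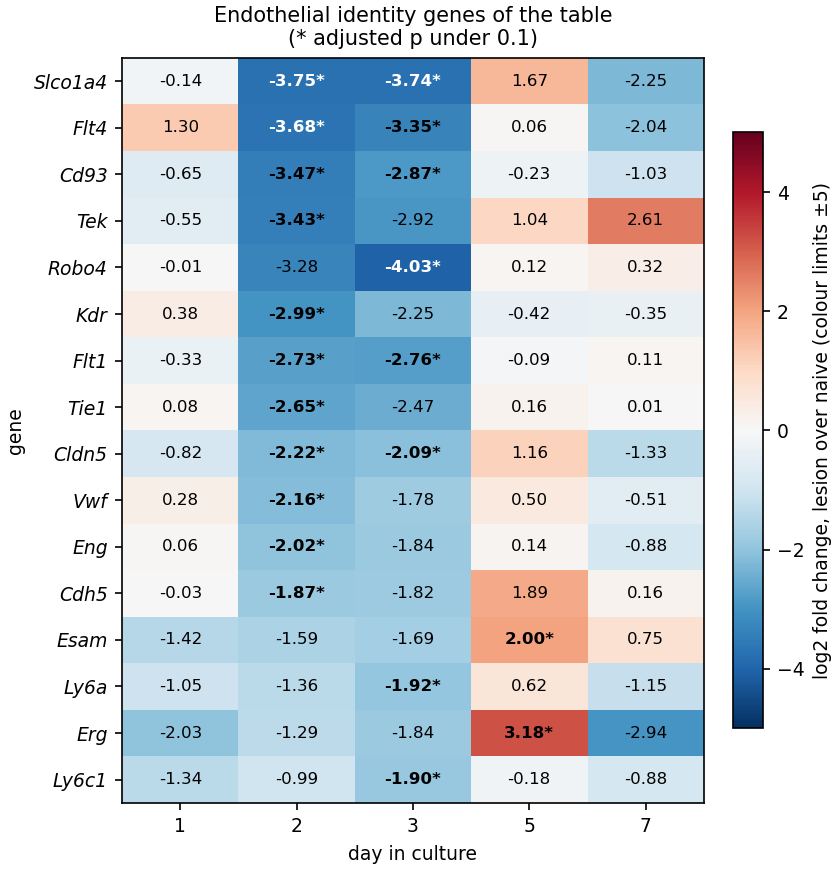
Log2 fold change of lesion over naive (colour and printed value) for the 16 endothelial identity genes of the table (rows, ordered by day 2) at each day in culture (columns); asterisks mark an adjusted p under 0.1. Values at days 2 and 3 are negative throughout, from -4.03 to -0.99, and 12 of 16 are positive at day 5.

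Kdr and Flt1 belong to a list of 11 genes for VEGF ligands, receptors and co-receptors, of which 4 fell at day 2 and 2 at day 3 with none risen, and 3 rose at day 5 with none fallen. Fallen genes made up 36.4% of the list at day 2 and 18.2% at day 3 (4.08% and 0.943% of all genes). Risen ones made up 27.3% at day 5 (12.8% of all genes). The fallen counts include Kdr at day 2 and Flt1 at days 2 and 3. Both were chosen with these results known, so nothing is read from the fallen shares. The fallen genes at day 2 were the 3 receptor kinases Kdr, Flt1 and Flt4 and the semaphorin receptor Plxnd1 (-1.67, adjusted p = 0.0958) of the authors' deposited table. No ligand passed at day 2 or day 3: Pgf, which encodes the Flt1 ligand placental growth factor, was at -0.20 and -0.55, and Figf, the gene of VEGF-D, at 0.41 and -1.35, in the authors' deposited table. The implied interval of Figf at day 3, -4.26 to 1.56, covers the values of Kdr, Flt1 and Flt4 at that day, and ligands were not tested against receptors. At day 5 Pgf rose with a log2 fold change of 1.97 (implied standard error 0.53, adjusted p = 0.0103) by the authors' deposited table. Figf (rank 13976) rose with 4.79 at day 5 (implied standard error 1.51, adjusted p = 0.0268) by the authors' deposited table. The co-receptor Nrp1, which neurons and other cells also express, rose with 1.44 at day 5 and 1.02 at day 7 in the authors' deposited table. Vegfa, Vegfb, Vegfc and Nrp2 are not in the table.

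Genes induced by VEGF or marking sprouting tip cells gave 2 fallen of 14 at day 2 (14.3%, against 4.08% of all genes), 1 at day 3 (7.14%, against 0.943%), 4 risen at day 5 (28.6%, against 12.8%) and 1 risen at day 7 (7.14%, against 3.11%). Esm1, an endothelial proteoglycan induced by VEGF, was at -6.71 at day 2 (implied standard error 1.45, adjusted p = 0.0114) and at 3.72 at day 5 (implied standard error 1.48, adjusted p = 0.0776), fallen and risen in the authors' deposited table. The expression rank of Esm1 is 13877, below those of the 4 genes. Angpt2, a Tie receptor ligand made by endothelium itself, fell at day 2 (-1.98, adjusted p = 0.0250) and day 3 (-2.00, adjusted p = 0.0676) by the authors' deposited table. Of the 5 angiopoietin and Tie genes, 3 fell at day 2 (60%, against 4.08% of all genes) and 1 at day 3 (20%, against 0.943%). At both day 5 and day 7, 2 rose (40%, against 12.8% and 3.11%). The risen ones were Angpt1, a Tek ligand made mainly by mural and other perivascular cells, at 1.74 and 4.60, and Angptl4, a secreted lipase inhibitor, at 5.99 and 4.51, at days 5 and 7 in the authors' deposited table. The matrix gene Nid2 (4.27), the urokinase receptor gene Plaur (2.87) and the early growth response gene Egr3 (2.20) also rose at day 5 in the authors' deposited table.

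Wnt signalling from neural cells induces barrier properties in brain endothelium. Of 20 genes for its ligands, receptors and targets, 5 fell at day 2 (25%, against 4.08% of all genes), 2 at day 3 (10%, against 0.943%) and 1 at day 7 (5%, against 0.985%). The 3 that rose at day 5 are 15% of the list, near the 12.8% of all genes tested that rose. The ligand genes Wnt7b (-5.05, implied standard error 1.32, rank 12794) and Ndp (-4.83, implied standard error 1.10, rank 12435) fell at day 2, by the authors' deposited table. Ndp fell at day 7 also, at -4.48 in the authors' deposited table. Lef1, a transcription factor of the pathway, fell at day 2 (-2.18) and day 3 (-2.26), and so did the forkhead gene Foxq1 (-2.22 and -2.53), in the authors' deposited table. At day 5 the receptor genes Lrp5 (2.18) and Tspan12 (1.99) and the forkhead gene Foxf2 (2.40), which mural cells also express, rose in the authors' deposited table.

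**Figure D3:**
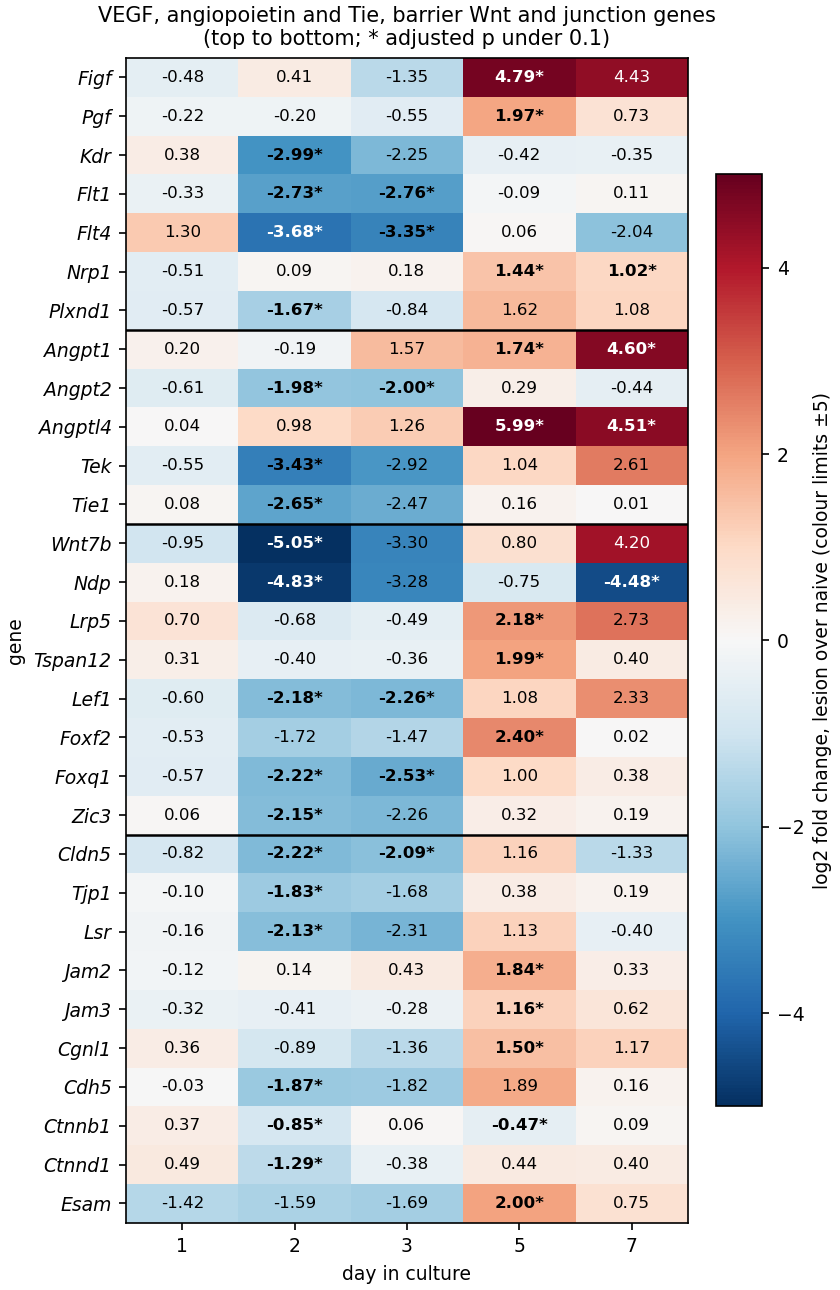
Log2 fold change of lesion over naive (colour and printed value) by day in culture (columns) for the genes of the table from 4 lists (rows, with lines between lists); asterisks mark an adjusted p under 0.1. Kdr, Flt1 and Flt4 lie between -3.68 and -2.25 at days 2 and 3, while the ligand genes Figf and Pgf pass only at day 5, with 4.79 and 1.97.

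Other junction genes fell with Cldn5 at day 2. Of 18 tight and adherens junction genes, 6 fell at day 2 (33.3%, against 4.08% of all genes). Cldn5 was the 1 that fell at day 3 (5.56%, against 0.943%). It was chosen with these results known and is counted at both days, so nothing is read from these shares. At day 2 the scaffold gene Tjp1 was at -1.83, the tricellular junction gene Lsr at -2.13, Cdh5 at -1.87 and the catenin genes Ctnnd1 and Ctnnb1 at -1.29 and -0.85, each fallen in the authors' deposited table. At day 5, 4 rose (Esam, Jam2, Jam3 and Cgnl1, between 1.16 and 2.00) and Ctnnb1 fell, by 0.47, in the authors' deposited table. Of the list 22.2% rose and 5.56% fell, against 12.8% and 11.2% of all genes. Catenins and Tjp1 are made by many cell types. Of 24 claudin family genes 7 are in the table. Besides Cldn5, Cldn23 fell at days 2 and 3, at -5.38 (implied standard error 1.28) and -4.90 (implied standard error 1.32), and Cldn16 rose at day 2, at 4.11, in the authors' deposited table. The fallen share of the family was 8.33% at each day, against 4.08% and 0.943% of all genes. The risen share at day 2 was 4.17%, against 1.89%. Cldn5 is counted in the fallen shares, so nothing is read from them. The 4 claudin genes that rose at day 5 (Cldn6, Cldn18, Cldn19 and Cldn26, between 3.23 and 4.81 in the authors' deposited table) are 16.7% of the family, near the 12.8% of all genes. They and Cldn16 have ranks from 15939 to 18735, and Cldn23 has rank 14691, in the authors' deposited table.

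Slco1a4 was 1 of 3 barrier transporter genes that fell at day 2. It stands in a list of 20 genes drawn up for barrier transport, which also holds Cav1 and Plvap, neither of them a transporter gene. From that list 1 fell at day 1, 3 at day 2 (15%, against 4.08% of all genes), 1 at day 3 (5%, against 0.943%) and 1 at day 5 (5%, against 11.2%), and 6 rose at day 5 (30%, against 12.8%). The 1 at day 3 was Slco1a4, which was chosen with these results known and is also counted at day 2. Nothing is read from the fallen shares of days 2 and 3. The day 1 gene (5% of the list, against 0.529% of all genes) was Slc3a2, the partner subunit of amino acid exchangers, at -0.996 (adjusted p = 0.0824) by the authors' deposited table. With Slco1a4 at day 2 fell the monocarboxylate transporter family gene Slc16a4 (-4.27, implied standard error 1.27, rank 13207) and the amino acid transporter gene Slc7a5 (-1.24, implied standard error 0.24) of the authors' deposited table. Slc7a5 is also active in neurons. The glucose transporter gene Slc2a1 (1.60), the monocarboxylate transporter gene Slc16a1 (2.08), the efflux pump genes Abcb1a (2.72), Abcg2 (1.69) and Abcc4 (1.49) and the caveolin gene Cav1 (3.11) rose at day 5 in the authors' deposited table. Plvap, a gene of fenestrated vessels that lack a barrier, was the one that fell at day 5 (-1.10, implied standard error 0.37, adjusted p = 0.0362), and had -0.03 at day 2 and -0.02 at day 3, in the authors' deposited table. Abcb1a, found in brain endothelium, had -2.19 at day 2 and -2.80 at day 3 without passing (adjusted p = 0.185 and 0.135) in the authors' deposited table. Of 14 Slco family genes 4 are in the table, and Slco1a4 alone fell at days 2 and 3. That is 7.14% of the family, against 4.08% and 0.943% of all genes. Slco1a4 was chosen with these results known, so nothing is read from these shares. Slco1a5 (rank 16076), a close relative and chromosomal neighbour of Slco1a4, was at -0.80 and -0.89 at days 2 and 3 by the authors' deposited table. The implied intervals of Slco1a5, -4.02 to 2.41 and -4.12 to 2.35, cover the values of Slco1a4 at those days. Slco1a5 rose at day 5, at 4.61 with an implied standard error of 1.57, by the authors' deposited table. At day 5 Slco6d1 (rank 18300) also rose, at 3.71, and Slco5a1 fell, at -1.39, in the authors' deposited table. Of the family 14.3% rose and 7.14% fell at day 5, against 12.8% and 11.2% of all genes.

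Markers of other cells moved on some of the same days. At day 2, 4 of 12 oligodendrocyte lineage markers and 3 of 8 proliferation genes fell, among them Olig2 (-8.29), Sox10 (-3.80) and Mki67 (-2.63) of the authors' deposited table. Of all genes tested, 4.08% fell at day 2. Proliferation genes rose in 7 of 8 cases at day 5 (87.5%, against 12.8% of all genes) and 2 of 8 at day 7 (25%, against 3.11%); Mki67 rose with 3.62 at day 5 in the authors' deposited table. No oligodendrocyte marker passed at day 5 or day 7, with none of the 4 in the table at an unadjusted p under 0.05. At day 3, 2 oligodendrocyte markers fell (16.7%, against 0.943% of all genes), Olig2 at -7.97 and Sox10 at -3.50 in the authors' deposited table. Pericyte and smooth muscle markers, which mark the cells that wrap brain vessels, gave none passed of 15 at days 2 and 3. Of the 9 in the table, 0 and 2 were lower at an unadjusted p under 0.05 at those days. These 9 genes rose at day 5 (60% of the list, against 12.8% of all genes). Examples were Pdgfrb, a receptor of pericytes, with 3.19 and Cspg4 with 4.27 in the authors' deposited table. Fibroblast and meningeal markers rose in 9 of 10 cases at day 5 and astrocyte markers in 5 of 12 (90% and 41.7%, against 12.8% of all genes). Pan-neuronal markers gave 1 risen and 2 fallen of 12 at day 2 (8.33% and 16.7%, against 1.89% and 4.08% of all genes). At day 5, 6 of them fell (50%, against 11.2%). Microglia and macrophage markers gave 1 fallen of 13 at day 1 (7.69%, against 0.529% of all genes), Csf1r at -2.26 in the authors' deposited table. None passed at days 2 and 3, and of the 2 in the table none had an unadjusted p under 0.05 at those days. Tmem119 rose at days 5 and 7 (7.69% of the list at each, against 12.8% and 3.11% of all genes). The part of the cell make-up of the cultures in the values of Cldn5, Kdr, Flt1 and Slco1a4 was not tested.

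**Figure D4:**
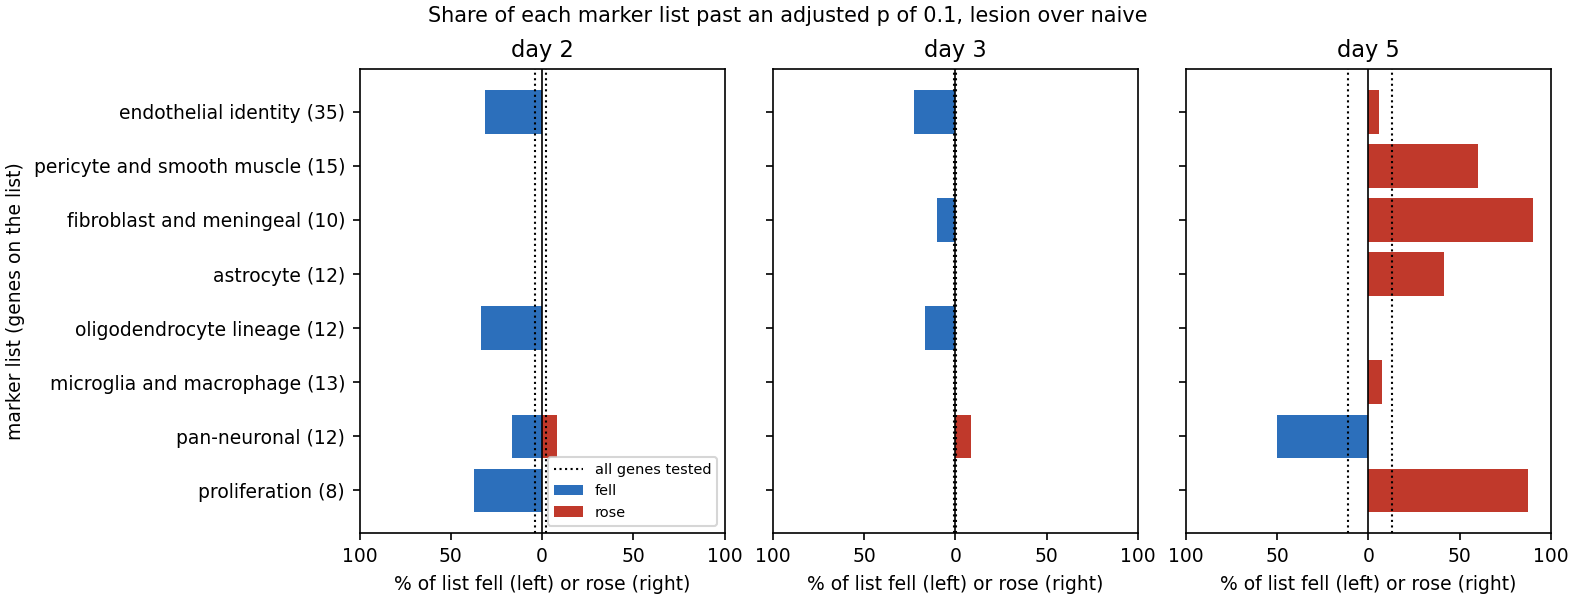
Percent of each marker list (rows, with the number of listed genes) that fell (left of 0) or rose (right of 0) in lesion over naive cultures at days 2, 3 and 5; dotted lines give the percent of all 19085 genes tested. Endothelial identity genes fell in 31.4% of cases at day 2 and 22.9% at day 3, and pericyte and smooth muscle genes in 0% at both. At day 5 these lists rose in 5.71% and 60% of cases. The endothelial list includes the 4 genes chosen with these results known, and without them 22.6% and 16.1% fell at days 2 and 3. The lists too were chosen with earlier results of these data known.

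The receptors Kdr and Flt1 had the most similar profiles among the 4 genes. Likeness was the root mean square difference of the 5 daily log2 fold changes between a gene and each of 5421 others of the authors' deposited table, predicted genes left out; it covers 5 comparisons and is a description. Kdr and Flt1 differed by 0.48, and Flt1 stood in place 12 of the order around Kdr. Cldn5 differed from Flt1 by 0.96 and from Kdr by 1.05, and Slco1a4 from the other three by 1.15 to 1.48. Nearest to Kdr were Klhl13 (0.16), Itga7 (0.28), Fam196b (0.31), Aox4 (0.34) and Tie1 (0.38). Nearest to Flt1 were Sh3tc2 (0.23), Taf1a (0.24), Tie1 (0.26), Tmem229a (0.28) and Plekhh1 (0.37). Cldn5 was closest to Ctla2a (0.30), Mars2 (0.44), Ly6a (0.48), Lsr (0.52) and Tmem252 (0.55). Around Slco1a4 the order began with Il7r (0.57), Mfng (0.63), Gbp7 (0.68), Neurod6 (0.70) and Zfp953 (0.77). Tie1, the Tie family receptor kinase, was thus the one gene among the 5 nearest of 2 members.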

How the data were processed

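RNA was measured in 29 libraries of cortical cultures, prepared with an ultra-low input kit and sequenced on a HiSeq4000, per the labels' protocols. Reads were aligned with STAR to mm10, per the submitters' processing notes. The file holds the authors' deposited comparisons of lesion with naive at 5 days, by voom and limma at a false discovery rate of 0.1 per its name: log2 fold changes of the authors, with the deposited p-values before and after adjustment. Rank, another column deposited by the authors, is unexplained; Actb (7) and Malat1 (10) have low numbers, and it is read as mean expression with 1 the highest. No counts per library were used, so depth and leave-one-out effects are unknown here.

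Adjusted p-values matched Benjamini-Hochberg values over 19085 tests to a relative deviation of 9.15e-13. Standard errors and 95% intervals were implied by fold change and p-value through the t distribution with 43 degrees of freedom, estimated on genes ranked up to 4771 and checked on simulated data. Counts use the authors' adjusted p under 0.1. The 4 genes and 19 gene lists were chosen with earlier results of these data known. Named genes are the 4, list members passing at 2 or more days or among the 3 largest changes of a list and day, the claudin and Slco family genes of the table, and the 5 genes nearest to each of the 4; others, such as Eng, Vwf, Ly6c1, Plxnd1, Tjp1, Ctnnd1, Abcg2, Klf2, Klf4 and Plvap, were chosen after their values were seen. Figf was matched to Vegfd as a synonym. Python 3.11.15, pandas 2.3.3 and SciPy 1.17.1 were used.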

Additional observations from a re-analysis of the deposited data

How the results depend on the processing

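At an adjusted p under 0.05 the members past the threshold were 4 at day 2 and 1 at day 3 (against 4 and 3 under 0.1), and the endothelial identity genes 6 at day 2, 1 at day 3 and 1 at day 5 (against 11, 8 and 2). Under 0.01 the counts were 0 for members at days 2 and 3 and 0 for endothelial identity genes at days 2, 3 and 5. Among genes with an expression rank up to 9542, endothelial identity genes counted 5 at day 3 and 1 at day 5, by construction, as fewer genes enter. An absolute log2 fold change of at least 1 as a further condition moved no count by over 1.5 times, and leaving Cldn5, Kdr, Flt1 and Slco1a4 out moved no median of the endothelial list by as much as its genes' median standard error. With 19 in place of 43 degrees of freedom the implied standard errors of the 4 genes were 0.873 to 0.993 times as large. No paired analysis was possible because the table gives comparisons and no values per library; for the same reason no replicate was left out. A fold change here rests on 2 or 3 libraries per group of unknown depth.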

Other observations

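Transcription factors used by endothelium moved in both directions. Of 21 genes, 2 fell (9.52%, against 4.08% of all genes) and 1 rose (4.76%, against 1.89%) at day 2. The ETS gene Ets1 (-1.91) and the hypoxia-inducible factor gene Epas1 (-2.79) fell, and Mef2c, which cortical neurons express strongly too, rose (0.62), in the authors' deposited table. At day 3 Mef2c rose (0.81), which is 4.76% of the list against 0.534% of all genes, and none fell. Of the 9 listed genes in the table, 4 were lower at an unadjusted p under 0.05 at day 3. At day 5, 5 rose (23.8%, against 12.8% of all genes), among them the shear-responsive gene Klf2 (1.74), Klf4 (2.23) and Foxc1 (5.16), a gene of meningeal and mural cells as well, while Mef2c fell (-1.85), in the authors' deposited table. At day 7, 2 rose (9.52%, against 3.11% of all genes), Foxc1 (1.97) and Foxo1 (2.70), in the authors' deposited table.

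Of 10 Notch pathway genes, 1 fell at day 2 (10%, against 4.08% of all genes), the receptor gene Notch1 (-1.51) in the authors' deposited table. At day 5, 4 rose (40%, against 12.8%), among them Heyl (4.57), a Notch target of mural cells, in the authors' deposited table. Heyl rose at day 7 also (5.56), and the ligand gene Jag2 fell (-2.86), in the authors' deposited table. Each is 10% of the list, where 3.11% of all genes rose and 0.985% fell at day 7. Hypoxia targets, of which Flt1 is one, gave 1 risen and 1 fallen of 15 at day 2, 2 fallen at day 3, 3 risen and 3 fallen at day 5 and 1 risen at day 7. The fallen share was 6.67% at day 2, against 4.08% of all genes, and 13.3% at day 3, against 0.943%. Flt1, chosen with these results known, was the fallen gene at day 2 and 1 of the 2 at day 3. Nothing is read from these fallen shares. The risen share was 6.67% at days 2 and 7, against 1.89% and 3.11% of all genes. At day 5 20% moved each way, where 12.8% of all genes rose and 11.2% fell. Ldha, a glycolytic enzyme gene, rose at days 2, 5 and 7 (0.59, 0.59 and 0.58), and the vasodilator peptide gene Adm fell at day 3 (-2.44), in the authors' deposited table.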
